A study of Homo sapiens with 6 samples.

Results

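The 8 genes described here belong to cholesterol synthesis and its control by the SREBP transcription factors: SREBF1, SREBF2, INSIG1, HMGCS1, PMVK, FDFT1, SQLE and LSS. They were chosen by name, and each matched 1 row of the 61806 Ensembl genes in the count table. RNA sequencing had been carried out on MV4-11, a human acute myeloid leukemia (AML) cell line with an internal tandem duplication of FLT3. Of the 6 libraries, 3 carried a control shRNA (shNC) and 3 bore the label shATGL, for an shRNA against ATGL, the lipase that releases fatty acids from stored triglyceride. The shRNAs were delivered by lentiviral vectors to cells of 1 line, and the labels do not say which shATGL construct was used or whether the libraries came from separate cultures, so p-values measure only the spread between these libraries, which may be technical.

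Total counts ranged from 59674064 to 74808280 per library. PNPLA2, the gene that encodes ATGL, was checked first and stood at 101, 97.0 and 107 CPM (counts scaled to the size of each library) in shNC and at 102, 98.1 and 104 CPM in shATGL. The groups overlapped and the log2 fold change was -0.01 (SE 0.063, adjusted p = 0.979, edgeR), so the targeted transcript was not lower and "shATGL" below names the libraries labelled so. All 6 myeloid leukaemia markers examined were detected, with a summed level of 308 to 342 CPM in shNC and 303 to 407 CPM in shATGL. Among 10 markers of other cell types, 5 were at 0 in every library, among them MS4A1, HBB, EPCAM and KRT18. CD3E, COL1A1 and ALB had at most 15 counts in a library, and PECAM1, which myeloid cells also express, 260 to 283 CPM. The libraries differed in how counts depended on gene length. Spearman's rho between a gene's deviation from its 6-library mean and its merged exon length, over 13770 genes, ran from -0.41 to -0.09 over the shNC libraries. It was 0.30 in shATGL 1, 0.32 in shATGL 2 and -0.08 in shATGL 3. shATGL 3 thus stood with the shNC libraries rather than with shATGL 1 and 2.

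Cells make cholesterol from acetyl-CoA through mevalonate, isoprenoid diphosphates, squalene and lanosterol. SREBP-2, encoded by SREBF2, mainly drives the genes of this pathway and the LDL receptor, and SREBP-1, encoded by SREBF1, mainly those of fatty acid synthesis. Both precursors sit in the endoplasmic reticulum with the escort protein SCAP. When sterols are plentiful, INSIG1 holds the complex there, and when they are scarce it moves to the Golgi, where proteases release the active factor. INSIG1 is itself a target of SREBP, so its transcript is commonly read together with those of the enzymes.

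The promoter stretches of SREBF2, INSIG1, HMGCS1 and LSS are shown because they carry the letters that SREBP-responsive promoters are known for, and because SREBF2, HMGCS1 and LSS are the genes of the opposed levels described further on. They are RefSeq sequences on GRCh38.p14, 5′ to 3′ on the gene's strand, and capitals mark matches to TCACNCCAC (a form of the sterol regulatory element) and ATTGG (the inverted CCAAT box, bound by NF-Y, a partner of SREBP). SREBF2 is read from chr22:41832945-41833045 on the plus strand, INSIG1 from chr7:155297688-155297774 on the plus strand, HMGCS1 from chr5:43313508-43313592 on the minus strand and LSS from chr21:46228874-46229024 on the minus strand.
SREBF2: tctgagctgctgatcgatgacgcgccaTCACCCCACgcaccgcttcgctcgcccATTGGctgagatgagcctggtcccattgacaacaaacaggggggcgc
INSIG1: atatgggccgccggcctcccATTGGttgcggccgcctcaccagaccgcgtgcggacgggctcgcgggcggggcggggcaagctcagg
HMGCS1: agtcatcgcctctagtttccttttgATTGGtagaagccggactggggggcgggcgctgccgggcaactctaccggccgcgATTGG
LSS: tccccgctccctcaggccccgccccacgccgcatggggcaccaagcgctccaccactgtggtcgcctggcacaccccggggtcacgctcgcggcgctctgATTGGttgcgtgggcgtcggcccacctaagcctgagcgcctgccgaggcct

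TCACNCCAC, searched on both strands of windows that run from 250 bases before to 50 bases after each start, was found in 1.13% of all 35116 windows. Of the 7 windows matched to the 8 genes, only that of SREBF2 held it, at positions -133 to -125 from the start. ATTGG was found in 34.6% of all windows and in 4 of the 7, those of SREBF2, INSIG1, LSS and 1 of 2 windows of HMGCS1. Among the 33 listed genes of the pathway and of SREBP control, 25 had windows, and 19 of their 38 windows (50%) held ATTGG. The E-box CACGTG, in 7.26% of all windows, lay in those of INSIG1 and LSS, and the GC box GGGCGG, in 45% of all windows, lay in all 7. Overlaps between these motifs were allowed. The matches describe letters in a window and say nothing of binding in these cells. FDFT1 and SQLE were not matched.

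All 8 genes were well measured, with between 2462 and 24885 counts in every library. Per kilobase of merged exon, the 6-library means ran from INSIG1 (46.8 ± 2.72 CPM per kb, SD, n = 6), FDFT1 (46.0 ± 3.93) and SREBF2 (44.4 ± 2.16) through PMVK (31.6 ± 3.94), SQLE (29.6 ± 0.952) and HMGCS1 (27.6 ± 2.15) to SREBF1 (20.2 ± 0.688) and LSS (9.92 ± 0.344). The ranges over libraries of neighbours in this order were apart for SREBF2 above PMVK, HMGCS1 above SREBF1 and SREBF1 above LSS. The ranges of the other neighbouring pairs overlapped. The length is that of all annotated exons merged, so genes with many long isoforms are placed lower than their main transcript alone would place them. The reads were counted with a strand setting that is not given in the sources used here, and SREBF1, SREBF2, HMGCS1, FDFT1 and LSS share exon bases with genes on the opposite strand, from 3.71% of SREBF2 to 15% of HMGCS1. LSS has 2 such partners, over 6.19% and 1.69% of its exon bases. Those partners had at most 61 counts in a library, except RAI1, which overlaps 6.92% of the exon bases of SREBF1 and had 75.1 to 87.4 CPM.

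**Figure D1:**
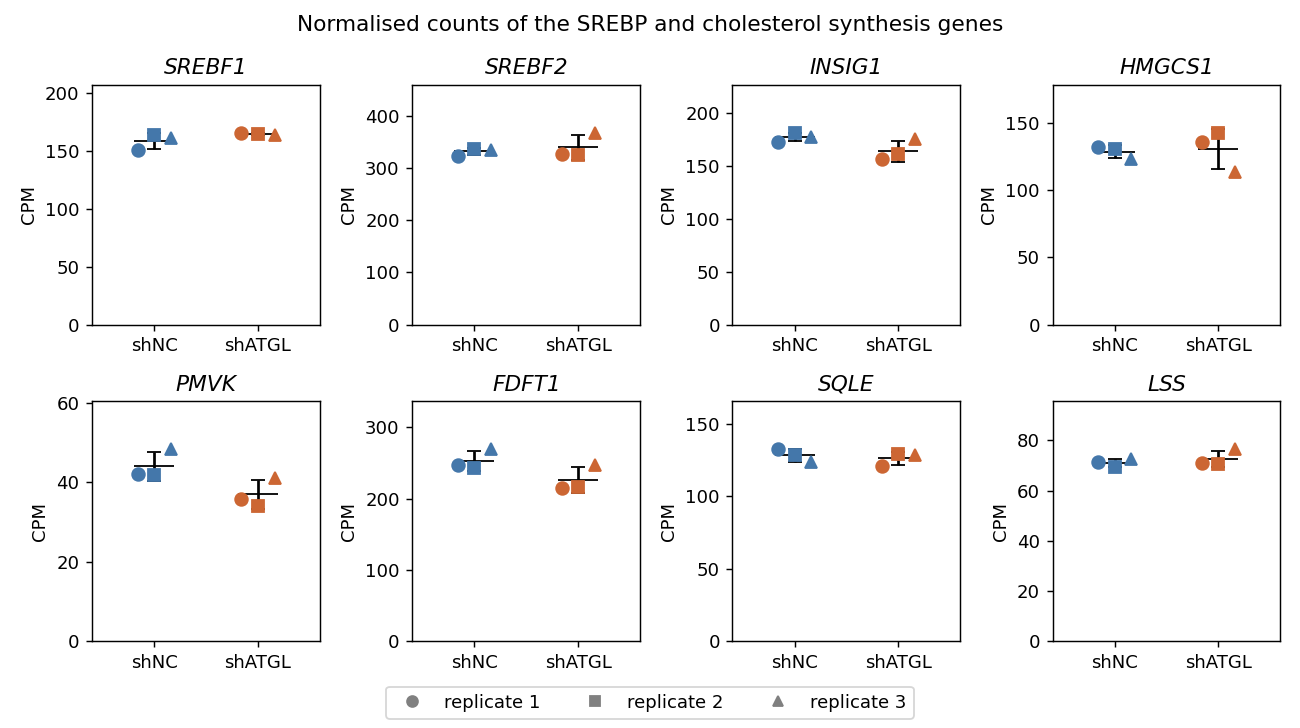
TMM-normalised CPM of the 8 genes, with a vertical axis from 0 in each panel. Points are single libraries, with a symbol for each replicate number, horizontal lines are group means and bars are the SD (n = 3 per group). The groups overlapped in 7 of the 8 panels, and PMVK was the exception, with 41.8 to 48.2 CPM in shNC and 34.0 to 41.0 CPM in shATGL.

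None of the 8 genes differed between shATGL and shNC after adjustment. In edgeR's quasi-likelihood test, 0 of 8 had an adjusted p under 0.05, against 1 of 19149 genes tested (0.00522%). At an unadjusted p under 0.05, 0 were higher (5.77% of all genes tested) and 1, PMVK, was lower (5.94%). DESeq2 also gave 0 of the 8 past the adjusted threshold and 1, PMVK, lower at the unadjusted one, where 3.14% of all genes were lower. The log2 fold changes split into 4 above and 4 below 0, with a median of 0.00, and 48.1% of all genes tested lay below 0. The 95% intervals of all 8 excluded a 2-fold change in either direction.

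SREBF1, whose product mainly serves fatty acid synthesis, stood at 151, 164 and 162 CPM in shNC and at 166, 165 and 164 CPM in shATGL. The shATGL libraries lay close together, and shNC 1 was the lowest of the 6. The log2 fold change was 0.05 (SE 0.057, 95% interval -0.08 to 0.19, adjusted p = 0.717, edgeR).

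SREBF2, the factor of the cholesterol pathway, was at 323, 337 and 335 CPM in shNC and at 326, 325 and 367 CPM in shATGL. Its highest value was that of shATGL 3, and the other 5 libraries lay within 323 to 337 CPM. Its log2 fold change was 0.03 (SE 0.065, 95% interval -0.12 to 0.18, adjusted p = 0.860, edgeR), and -0.03 without shATGL 3.

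INSIG1, the sterol-dependent brake on SREBP, was at 173, 181 and 178 CPM in shNC and at 156, 161 and 175 CPM in shATGL. shATGL 1 and 2 lay below every shNC library, while shATGL 3 lay among them. The log2 fold change was -0.11 (SE 0.063, 95% interval -0.26 to 0.04, adjusted p = 0.511, edgeR), and it was -0.13 and -0.05 under the 2 length corrections described further on. In percent, the shATGL level was 92.5% of that of shNC, with an interval of 83.5% to 102%.

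HMGCS1, which condenses acetyl-CoA with acetoacetyl-CoA to HMG-CoA, was at 132, 131 and 123 CPM in shNC and at 136, 143 and 114 CPM in shATGL. The highest and the lowest of the 6 values were both in shATGL, in libraries 2 and 3. The log2 fold change of 0.03 (SE 0.091, 95% interval -0.19 to 0.24, adjusted p = 0.928, edgeR) was smaller than the spread between the shATGL libraries, whose SD was 15.1 CPM against 4.89 CPM in shNC. Without shATGL 3 it was 0.11 (adjusted p = 0.200, edgeR).

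PMVK, the kinase that adds a second phosphate to mevalonate, was at 42.1, 41.8 and 48.2 CPM in shNC and at 35.9, 34.0 and 41.0 CPM in shATGL. It was the only one of the 8 whose groups did not overlap, and among all genes tested 9.38% lay lower in shATGL without overlap and 7.93% higher. The gap was narrow, from 41.8 CPM in shNC 2 to 41.0 CPM in shATGL 3. The log2 fold change was -0.25 (SE 0.099, 95% interval -0.48 to -0.02, unadjusted p = 0.0352, adjusted p = 0.405, edgeR), or 83.9% of the shNC level (71.6% to 98.4%). The exact two-sided permutation p was 0.1, the smallest that 3 against 3 libraries allow. Its coefficient of variation over the 6 libraries, 12.4%, was the largest among the 8, and the median gene with a mean of at least 10 CPM had 8.54%.

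FDFT1, squalene synthase, was at 247, 243 and 269 CPM in shNC and at 215, 216 and 246 CPM in shATGL. shATGL 1 and 2 lay below all shNC libraries, and shATGL 3, at 246 CPM, lay between shNC 2 and shNC 1. The log2 fold change was -0.16 (SE 0.075, 95% interval -0.34 to 0.01, unadjusted p = 0.0645, adjusted p = 0.443, edgeR).

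SQLE, squalene epoxidase, was at 132, 129 and 124 CPM in shNC and at 121, 129 and 129 CPM in shATGL. It was the steadiest of the 8, with a coefficient of variation of 3.22%, and its log2 fold change was -0.02 (SE 0.059, 95% interval -0.16 to 0.12, adjusted p = 0.905, edgeR). LSS, which cyclises squalene epoxide to lanosterol, was at 71.2, 69.3 and 72.6 CPM in shNC and at 70.9, 70.4 and 76.4 CPM in shATGL. The highest value was again that of shATGL 3, and the log2 fold change was 0.03 (SE 0.064, 95% interval -0.12 to 0.18, adjusted p = 0.869, edgeR), and -0.0093 without shATGL 3.

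The library shATGL 3 decided whether any of the 8 genes passed the test. Without it, with shATGL reduced to 2 libraries, PMVK was at -0.33 on the log2 scale (adjusted p = 0.0351, edgeR) and FDFT1 at -0.23 (adjusted p = 0.0338, edgeR). INSIG1, at -0.16, had an adjusted p of 0.0551 (edgeR). In that fit 6.07% of the 19954 genes tested were lower and 7.94% higher at an adjusted p under 0.05, and 14.1% were lower at an unadjusted p under 0.05, as were 3 of the 8. With any other single library left out, 0 of the 8 had an adjusted p under 0.05, and PMVK stayed below 0, at -0.29 to -0.18.

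**Figure D2:**
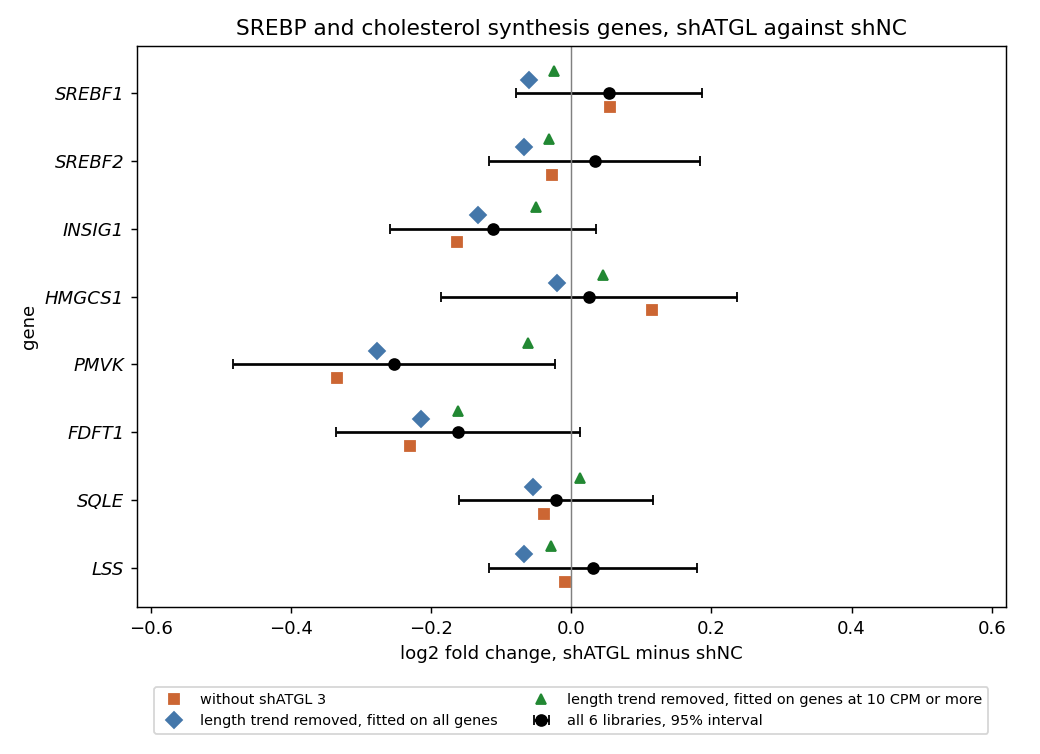
Log2 fold change of shATGL against shNC (horizontal axis) for the 8 genes. Black points with bars are the edgeR estimates over 6 libraries with their 95% intervals, squares are the estimates without shATGL 3, and diamonds and triangles are estimates after a trend with gene length was removed from each library, fitted on all genes or on genes with a mean of at least 10 CPM. Only the interval of PMVK lay below 0, and its estimate was -0.28 or -0.06 after the length trend was removed in these 2 ways.

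Gene length moved with these differences. Over 9271 genes with a length and a mean of at least 10 CPM, Spearman's rho between log2 fold change and merged exon length was 0.54, and over all 18566 genes tested with a length it was 0.19. These are correlations across genes, which are not independent replicates. PMVK, at 1.28 kb, was among the shortest 3.04% of genes with at least 10 CPM. When those genes were cut by length into 10 groups of equal size, PMVK fell in the shortest group, where the median log2 fold change was -0.20 and 88.2% of 927 genes lay below 0. FDFT1, at 5.2 kb, fell in the sixth group, where the median was -0.01. SREBF1, SREBF2 and LSS, at 7.24 to 8.03 kb, fell in the eighth group, where it was 0.05.

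The value of PMVK depended on how the length trend was taken out. With each library's trend fitted on all genes, its log2 fold change was -0.28 (unadjusted p = 0.0352, adjusted p = 0.453, edgeR), and rho over the genes with at least 10 CPM was still 0.29. With the trend fitted on the genes with at least 10 CPM alone, a form chosen after the first result was seen, it was -0.06 (unadjusted p = 0.359, adjusted p = 0.745, edgeR). The correlation over those genes was then -0.04, but over all genes it was -0.19. FDFT1 was at -0.22 and -0.16 in these 2 fits. The fits also differed in scaling, since only in the second was each library's median trend over the genes with at least 10 CPM set to 0. The median log2 fold change of those genes was -0.09 in the first fit and -0.02 in the second, against -0.02 without correction. The number of the 8 genes below 0 went from 4 to 8 in the first fit, where 59.7% of all genes were below 0, and to 6 in the second, where 44.4% were.

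**Figure D3:**
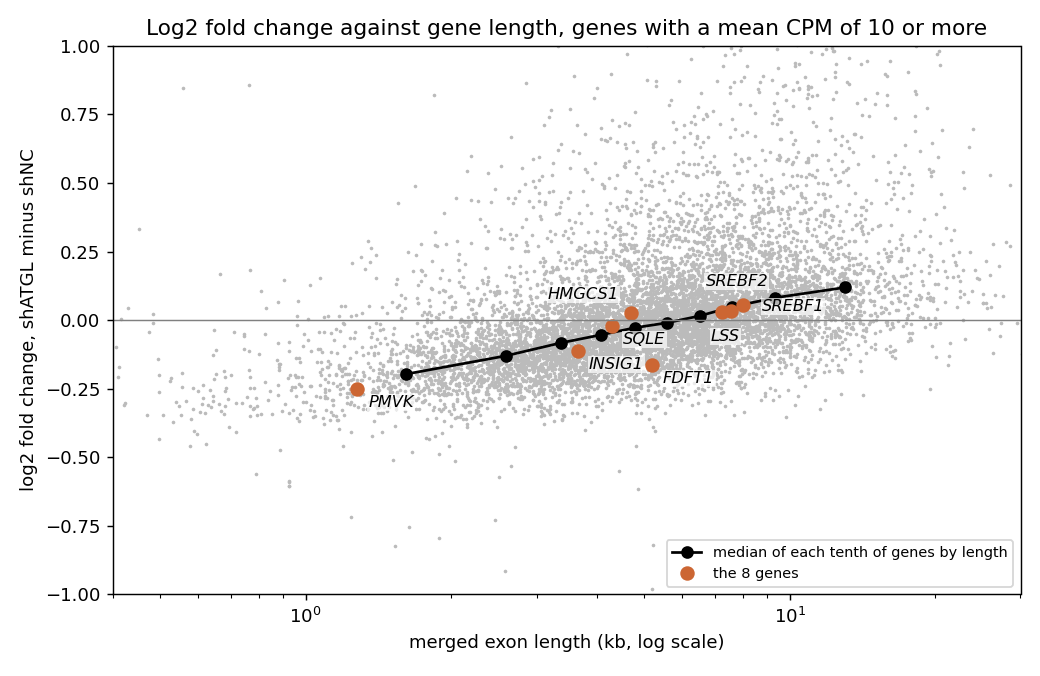
Log2 fold change of shATGL against shNC (vertical axis) against merged exon length in kb (horizontal axis, log scale) for 9271 genes with a mean of at least 10 CPM, of which 69 lie beyond the axes. Grey points are genes, black points the medians of 10 groups of equal size by length, and orange points the 8 genes. The medians ran from -0.20 in the shortest group to 0.12 in the longest, and PMVK lay at the short end.

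The rest of the pathway was examined from a list of 21 enzyme genes, 5 of which are among the 8. Of these 21, 5 had log2 fold changes above 0 and 16 below (48.1% of all genes tested were below), with a median of -0.05 against 0.01 over all genes tested. Over the genes with at least 10 CPM, the median was -0.02. Their share below 0 ran from 88.2% in the shortest of the 10 length groups to 19.6% in the longest. At an unadjusted p under 0.05, 0 of the 21 were higher (5.77% of all genes tested) and 3, PMVK, FDPS and LBR, were lower (5.94%). None of the 21 had an adjusted p under 0.05. The 3 became 1 with DESeq2, where 3.14% of all genes were lower. They became 2 with the length trend fitted on all genes (6.79%) and 1 with that fitted on genes at 10 CPM or more (3.53%). FDPS, which makes farnesyl diphosphate, was at 290 ± 13.6 CPM in shNC and 260 ± 15.6 CPM in shATGL (SD, n = 3), a log2 fold change of -0.16 (adjusted p = 0.425, edgeR). LBR, a sterol reductase of the nuclear membrane, was at 171 ± 9.97 and 151 ± 11.5 CPM, a log2 fold change of -0.18 (adjusted p = 0.426, edgeR). The split of the 21 genes also moved with the length correction, to 20 below 0 with the trend fitted on all genes (59.7% of all genes in that fit) and 12 with the other form (44.4%). FDPS was at -0.18 and -0.10 in these 2 fits. Without shATGL 3, 4 of the 21 had an adjusted p under 0.05, namely PMVK, FDFT1, FDPS and LBR, all lower, where 6.07% of all genes were lower.

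At the early steps, ACAT2, which makes acetoacetyl-CoA, was at 103 ± 8.36 CPM in shNC and 100.1 ± 3.32 CPM in shATGL (SD, n = 3). MVK, the first mevalonate kinase, was at 20.6 ± 1.96 and 18.6 ± 1.02 CPM, with a log2 fold change of -0.15 (adjusted p = 0.579, edgeR). MVD, the decarboxylase, and IDI1, the isomerase, which act after PMVK, differed by less than the spread between libraries, MVD at 34.2 ± 1.62 and 34.5 ± 0.985 CPM and IDI1 at 88.9 ± 2.17 and 85.5 ± 4.72 CPM. In the steps after lanosterol, CYP51A1, the lanosterol demethylase, was at 55.2 ± 2.82 CPM in shNC and 54.6 ± 2.36 CPM in shATGL. The counts of CYP51A1 are uncertain, because it shares 79.4% of its exon bases with AC000120.2 on the same strand. AC000120.2 had at most 2 counts in a library. TM7SF2, a second sterol reductase, was at 11.2 ± 0.389 and 9.56 ± 1.39 CPM, with a log2 fold change of -0.22 (adjusted p = 0.522, edgeR). Of the demethylation enzymes, MSMO1 was at 25.4 ± 0.937 and 24.5 ± 3.21 CPM and HSD17B7 at 12.3 ± 1.31 and 13.1 ± 0.945 CPM. NSDHL had a log2 fold change of -0.15 (SE 0.080, adjusted p = 0.483, edgeR), with group means that round to 30 and 27 CPM. NSDHL was, with PMVK and FDPS, 1 of the 3 genes of the list whose groups did not overlap, all lower in shATGL, as were 9.38% of all genes tested. Its value was -0.17 with the length trend fitted on all genes and -0.0089 with the other form. EBP, the sterol isomerase, was at 48.6 ± 2.60 and 42.8 ± 4.08 CPM, SC5D, the desaturase, at 49.8 ± 2.43 and 51.1 ± 3.28 CPM, and DHCR7, the reductase of a late step, had means of 57.1 and 56.6 CPM with a log2 fold change of -0.01 (SE 0.072).

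**Figure D4:**
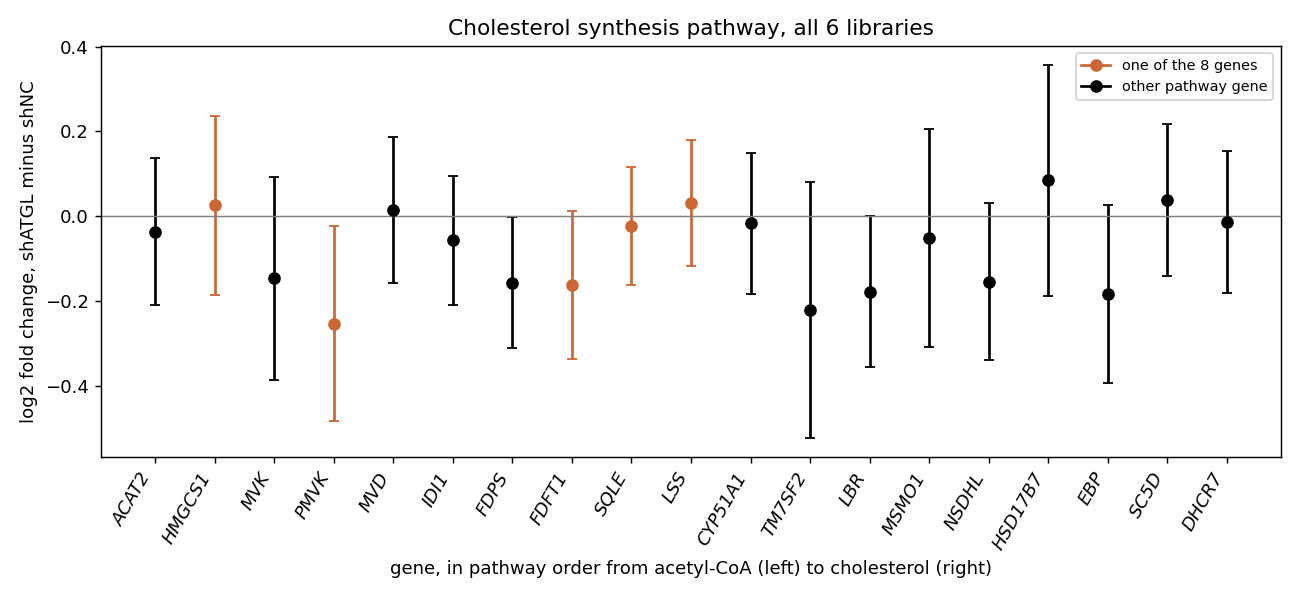
Log2 fold change of shATGL against shNC (vertical axis) for 19 of the 21 cholesterol synthesis genes, in the order of the pathway steps. Points are edgeR estimates over 6 libraries and bars their 95% intervals, with the 5 enzymes among the 8 genes in orange. Of the 19 points, 14 lay below 0, and 0 had an adjusted p under 0.05.

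The 12 genes that control SREBP split into 7 above and 5 below 0 (48.1% of all genes tested were below), with a median of 0.01. At an unadjusted p under 0.05, 0 of the 12 were higher (5.77% of all genes tested) and 0 lower (5.94%). SCAP, the escort, was at 79.4 ± 2.19 CPM in shNC and 79.8 ± 1.26 CPM in shATGL (SD, n = 3). INSIG2, the second retention protein, was at 9.24 ± 0.562 and 9.81 ± 1.29 CPM. The Golgi proteases that release SREBP were at 140.2 ± 3.84 and 141 ± 10.2 CPM for MBTPS1 and at 15.8 ± 1.92 and 17.2 ± 1.91 CPM for MBTPS2. The ubiquitin ligases RNF139 and RNF145 were at 63.3 ± 5.42 and 57.4 ± 1.93, and at 63.1 ± 0.979 and 62.3 ± 2.47 CPM. RNF139 was the only gene of this list whose groups did not overlap, lower in shATGL, as were 9.38% of all genes tested. FBXW7, a ligase that marks nuclear SREBP for degradation, was at 17.7 ± 1.67 and 21.1 ± 4.54 CPM, with a log2 fold change of 0.25 (adjusted p = 0.559, edgeR) and of 0.42 without shATGL 3 (adjusted p = 0.0310, edgeR). With the length trend removed in the 2 ways it was 0.089 and 0.11.

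Of the genes on either side of the pathway, 0 had an adjusted p under 0.05 over the 6 libraries. At an unadjusted p under 0.05, 5.94% of all genes tested were lower. Of 8 sterol uptake and transport genes tested, 4 were above and 4 below 0, and NPC2 and TMEM97 were lower at an unadjusted p under 0.05. NPC2, which carries cholesterol out of lysosomes, was at 66.6 ± 3.58 CPM in shNC and 54.8 ± 1.46 CPM in shATGL, a log2 fold change of -0.28 (unadjusted p = 0.00360, adjusted p = 0.392, edgeR). TMEM97, a binding partner of NPC1, was at 36.5 ± 0.711 and 32.2 ± 1.74 CPM (adjusted p = 0.414, edgeR). Of the 9 isoprenoid branch genes, 3 were above and 6 below 0, and COQ2 and PDSS1, both of coenzyme Q synthesis, were lower at an unadjusted p under 0.05. COQ2 was at 63.9 ± 3.94 and 52.4 ± 5.37 CPM (log2 fold change -0.29, adjusted p = 0.392, edgeR) and PDSS1 at 32.1 ± 1.09 and 27.1 ± 2.40 CPM (log2 fold change -0.24, adjusted p = 0.399, edgeR). NPC2, TMEM97, COQ2 and PDSS1 are short, at 1955 to 3034 exon bases. They fell in the first 3 length groups, whose medians were -0.20, -0.13 and -0.08. The uptake genes at that unadjusted threshold went from 2 to 1 with DESeq2 and with each length fit. The isoprenoid genes stayed at 2 with DESeq2 and the fit on all genes, and went to 1 with the other fit. Of all genes, 3.14% were lower at that threshold with DESeq2, 6.79% with the fit on all genes and 3.53% with the other.

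The 9 SREBP targets of fatty acid synthesis split into 4 above and 5 below 0 (48.1% of all genes tested were below). At an unadjusted p under 0.05, 0 of the 9 were higher (5.77% of all genes tested) and 0 lower (5.94%). The smallest p among them was that of ACACA, acetyl-CoA carboxylase, at 81.6 ± 4.78 CPM in shNC and 90.7 ± 2.51 CPM in shATGL (log2 fold change 0.15, unadjusted p = 0.0529, adjusted p = 0.429, edgeR). Of the 8 genes of sterol export and storage, 4 were tested, 2 above and 2 below 0. The smallest p there was that of ABCA1, the cholesterol exporter, at 4.27 ± 0.346 and 4.55 ± 0.254 CPM (log2 fold change 0.09, adjusted p = 0.799, edgeR). Without shATGL 3, 6 genes of these lists had an adjusted p under 0.05 (edgeR), in a fit where 6.07% of all genes were lower and 7.94% higher. NPC2 at -0.30, LIPA, the lysosomal lipase, at -0.21, COQ2 at -0.38, PDSS1 at -0.31 and ACSS2, which makes acetyl-CoA from acetate, at -0.23 were lower on the log2 scale. GGPS1, which makes geranylgeranyl diphosphate and whose counts are uncertain because it shares 37.3% of its exon bases with TBCE, was higher, at 0.25. SOAT2, a cholesterol acyltransferase, had 0 counts in every library, where 3 counts correspond to 0.0392 to 0.0504 CPM.

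**Figure D5:**
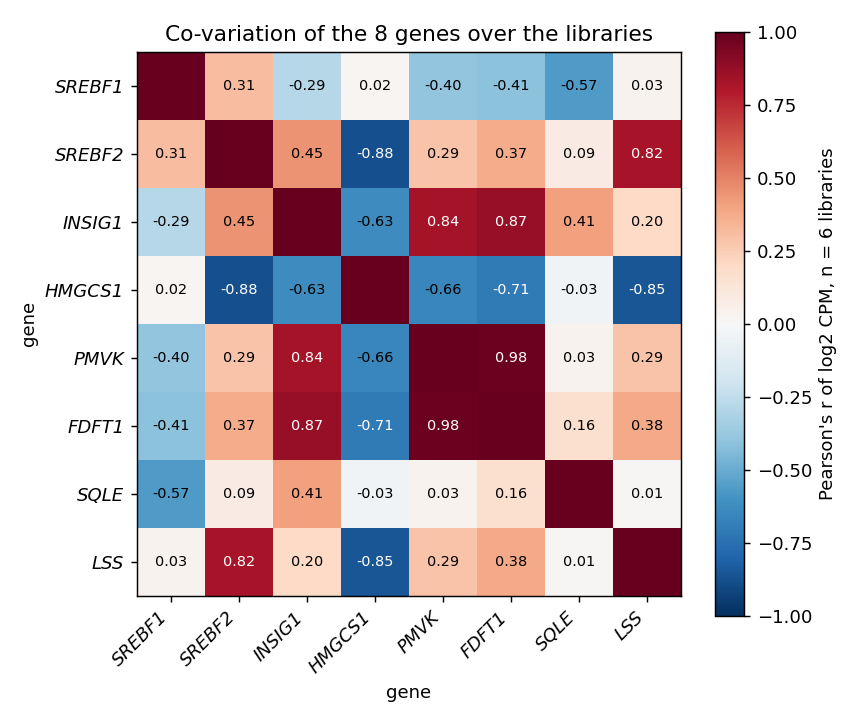
Pearson's r of log2 CPM over the 6 libraries for each pair of the 8 genes, red above 0 and blue below. PMVK and FDFT1 gave the highest value, 0.98, and SREBF2 and HMGCS1 the lowest, -0.88.

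Co-variation over the libraries was computed for all 28 pairs, with exact permutation over the 720 pairings of 6 libraries. Of these, 18 had a Pearson's r above 0 and 10 below, the median r was 0.06, and the smallest adjusted permutation p was 0.214 for Pearson's r and 0.467 for Spearman's rho. No pair thus passed the correction, while 3 pairs above 0 and 2 below had an unadjusted permutation p under 0.05. The sign of r stayed the same with each library left out in 8 of the 18 pairs and in 8 of the 10. With the length trend fitted on all genes removed, 17 of the 18 and 6 of the 10 kept their sign, and the median r was 0.79, against 0.41 with the other form. The 2 forms also differed in scaling, as given above.

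PMVK and FDFT1, the highest pair, had r = 0.98 (exact permutation p = 0.0125) and rho = 0.89 (exact permutation p = 0.0333). Without the 2 libraries farthest from the median of PMVK, shATGL 2 and shNC 3, r was 0.98, and with the group means removed it was 0.97. Both genes were highest in shNC 3 and stood higher in shATGL 3 than in shATGL 1 and 2. As a comparison, 2.74% of 9294 genes with at least 10 CPM had an r with PMVK at least as high, and 3.78% had one with FDFT1.

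HMGCS1 ran opposite to SREBF2, with r = -0.88 (exact permutation p = 0.0236) and rho = -0.77 (exact permutation p = 0.103). Without shATGL 3 and shNC 1, the libraries farthest from the median of SREBF2, r was -0.84. HMGCS1 also ran opposite to LSS, with r = -0.85 (exact permutation p = 0.0292) and rho = -0.66 (exact permutation p = 0.175), and r was -0.56 without shATGL 3 and 2. In shATGL 3, HMGCS1 was at its lowest and both SREBF2 and LSS at their highest. Of the same 9294 genes, 2.93% had an r with SREBF2 as low as that of HMGCS1. For r with HMGCS1, 4.52% were as low as SREBF2 and 6.58% as low as LSS.

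INSIG1 went with FDFT1 at r = 0.87 (exact permutation p = 0.0306) and rho = 0.60 (exact permutation p = 0.242), and with PMVK at r = 0.84 (exact permutation p = 0.0403) and rho = 0.66 (exact permutation p = 0.175). Both values fell when shATGL 1 and 2, the 2 libraries farthest from the median of INSIG1, were left out together. Without them r was 0.06 with FDFT1 and 0.19 with PMVK. With the group means removed it was 0.73 and 0.63. The lowest r with a single library left out was 0.80 and 0.79. Of the 9294 genes, 9.31% had an r with INSIG1 at least as high as that of FDFT1, and 15.1% as that of PMVK. The pair of SREBP genes, SREBF1 and SREBF2, had r = 0.31 (exact permutation p = 0.469) and rho = 0.09 (exact permutation p = 0.919), and r was -0.77 without shNC 1 and 3. It was 0.92 with the length trend fitted on all genes removed, and r of SREBF1 with FDFT1 went from -0.41 to 0.86.

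Across the 8 genes no library was high or low throughout. shNC 2 and shATGL 3 each had 7 of the 8 genes above their 6-library mean, while shATGL 1 had 2 and shATGL 2 had 3. A mean of the standardised log2 CPM of INSIG1, HMGCS1, PMVK, FDFT1, SQLE and LSS was compared with every other gene of at least 10 CPM. The most alike were RPN2 (r = 0.998), C1orf52 (r = 0.996), MLX (r = 0.995), EARS2 (r = 0.995) and ECSIT (r = 0.995), over 6 libraries, and 903 of 9287 genes had an r above 0.9. The 6 averaged genes did not all run alike. INSIG1, PMVK and FDFT1 had r of 0.84 to 0.98 with one another. HMGCS1 had an r below 0 with each of the others, from -0.85 with LSS to -0.03 with SQLE.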

How the data were processed

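The deposited file holds raw counts per Ensembl gene and library, which the authors made after cleaning reads with FASTP. The aligner, counting tool and strand setting are not given in the sources used here. The submitters' processing notes name the mouse build mm10, although the rows are human Ensembl genes, so coordinates are from GENCODE 29 (GRCh38) and promoters from RefSeq. The labels' extract protocol (miRNeasy, Geo-seq amplification) differs from the TRIzol protocol of the methods. Of 61806 identifiers, 61757 matched a symbol and 58254 a position.

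The comparison was run with edgeR 4.0.16 (R 4.3.3). Its filterByExpr step, at a count of 10 and a total of 15, left 19149 genes. Libraries were scaled by TMM, and shATGL was compared with shNC by the quasi-likelihood test, with Benjamini-Hochberg adjustment over all genes tested. Genes were counted at an adjusted p under 0.05, unless a 2-fold change is named as well. Asking for a 2-fold change as well, the study's own rule, left the same number in the edgeR fit over 6 libraries. Without shATGL 3, that rule left 0 of the 8 genes rather than 2. DESeq2 1.42.0, which the study used, was an alternative. CPM are TMM-normalised and were computed from the counts, and merged exon lengths are from GENCODE 29. Single genes and correlations were tested by exact two-sided permutation over 20 relabellings or 720 pairings. With at least 2462 counts of each of the 8 genes in every library, the spread between libraries, not counting error, limits the precision.

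The 8 genes and the lists were chosen with earlier results of these data known. Genes were named by rule: the 8, all genes of the synthesis and SREBP control lists, genes of other lists with an unadjusted p under 0.05 or else the smallest p, PNPLA2, and the 5 genes most like the mean of INSIG1 and the 5 enzymes. A few listed genes stay in the counts of their lists but are not reported here. SOAT2, LIPA, GGPS1 and ACSS2 were named after their values were seen. Neither form of the length correction took out the trend in every set of genes examined. After the correction fitted on all genes, rho of log2 fold change with exon length was 0.29 over genes at 10 CPM or more. After the other form it was -0.19 over all genes. The form fitted on genes at 10 CPM or more was added after the result of the planned form, fitted on all genes, was seen.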

Additional observations from a re-analysis of the deposited data

How the results depend on the processing

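The 3 libraries per group limit these comparisons, and a p that misses the threshold does not show that levels were equal. Over all genes, the number called at 2-fold and an adjusted p under 0.05 was 1, and it was 24 with DESeq2 (19 higher), 0 with the replicate number as a block, and 0 to 319 with a library left out, the highest without shATGL 3. Of the 8 genes, 0 had an adjusted p under 0.05 under each alternative except without shATGL 3, where 2 did (range 0 to 2). Same-numbered deviations correlated at 0.07, 0.25 and 0.44 over 9295 genes, and differently numbered ones at -0.41 to 0.40. These values do not settle whether the numbers pair the libraries. With the replicate block, PMVK was at -0.25 (adjusted p = 0.143, edgeR) and FDFT1 at -0.16 (adjusted p = 0.149, edgeR). At an unadjusted p under 0.05, 2 of the 8 genes rather than 1 were lower. The share of all genes tested that were lower rose too, from 5.94% to 9.41%. The count of the 21 pathway genes below 0 was still 16. That count ran from 12 to 20 over all alternatives. DESeq2 size factors, or no filter on low counts, moved none of these calls.

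The median r of the 28 pairs, 0.06, became 0.79 with the length trend fitted on all genes and 0.41 with that fitted on genes at 10 CPM or more. It was -0.085 to 0.13 with a library left out, the lowest without shATGL 1. The form fitted on genes at 10 CPM or more was chosen after seeing the data. The 2 forms differed in the genes fitted and in scaling, since only that form set the median trend of those genes to 0. How much each of these contributed to the difference between the forms was not tested. Several log2 fold changes close to 0 changed sign, none of them with an adjusted p under 0.05. With the trend fitted on all genes, SREBF1 was at -0.060, SREBF2 -0.068, HMGCS1 -0.020, LSS -0.067, MVD -0.028, SC5D -0.026, SCAP -0.077, MBTPS1 -0.12 and MBTPS2 -0.0091. With that fitted on genes at 10 CPM or more, SREBF1 was at -0.025, SREBF2 -0.032, SQLE 0.012, LSS -0.028, ACAT2 0.00014, CYP51A1 0.049, MSMO1 0.053, DHCR7 0.028, SCAP -0.031, MBTPS1 -0.10 and RNF145 0.0053.

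With single libraries left out, signs changed within these ranges: SREBF2 -0.028 to 0.066, HMGCS1 -0.041 to 0.11, SQLE -0.048 to 0.0067, LSS -0.0093 to 0.052, ACAT2 -0.061 to 0.032, MVD -0.0027 to 0.046, CYP51A1 -0.043 to 0.018, MSMO1 -0.12 to 0.051, SC5D -0.015 to 0.095, DHCR7 -0.065 to 0.015, SCAP -0.0069 to 0.053, MBTPS1 -0.053 to 0.041 and RNF145 -0.052 to 0.010.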
